A study of Gallus gallus with 27 samples.

Results

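SCF2 and CF2 are spontaneously immortalized chicken embryonic fibroblast cultures that carry the same line number, and they are compared here as cells grown in suspension against cells grown attached to plastic. The 6 libraries, 3 labelled SCF2 and 3 labelled CF2, were chosen by their labels from the 27 RNA-seq libraries of the series. SCF2 is described as anchorage-independent: immortalized fibroblasts were formed into spheroids in microwells, moved to low-attachment dishes and then to baffled shaker flasks in DMEM with 10% serum and Pluronic F-68 at 39 °C, until single cells grew in suspension at 100 RPM. CF2 is described as immortalized attached fibroblasts of the breed Broiler Ross 308, and immortalized meant stable morphology and doubling time past at least 120 population doublings.

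The labels leave several limits on this pair. The breed field of SCF2 reads Israeli Baladi while its source name reads Broiler Ross 308, and no label beyond the shared number says that SCF2 was made from CF2. SCF2 belongs to the first deposited set and CF2 to the second, so growth mode and deposited set cannot be told apart. The treatment text shared by the second set describes a medium with 200 µM oleic acid for 7 days, and the labels do not say whether CF2 received it. ADIPOQ and LPL, the adipocyte hormone adiponectin and lipoprotein lipase, had 0 reads in every CF2 and every SCF2 library, and the fatty acid carrier FABP4 had a mean of 3.68 ± 0.409 normalized reads (SD, n = 3) in CF2 and 0 reads in SCF2. Over whole lists, 4 of 28 tested adipocyte genes were higher (14.3%, against 25.2% of all genes) and 10 lower (35.7%, against 18.3%) in SCF2. Of 39 tested genes of fatty acid synthesis and lipid droplets 10 were higher (25.6%) and 15 lower (38.5%), with a median log2 difference of 0. That list summed to 69400 to 70800 in CF2 and 43800 to 46400 in SCF2, a sum in which abundant genes weigh most. The part of the medium in these values was not tested. For comparison the series holds a second such line, attached CF4 (breed Israeli Baladi) and suspension SCF4 (breed and source name again opposed), which is split over the deposited sets in the same way, and the East Lansing Line 0 fibroblast line DF1, attached (DF1) and in suspension (SDF1), for which both groups came from the second set. The series states 3 biological replicates per group, and whether these were separate cultures of 1 clone or bank is not given.

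Attached fibroblasts hold on to their substrate through integrins, receptors that bind matrix proteins outside the cell and connect through focal adhesion proteins to contractile actin fibres inside it. Tension in those fibres keeps the coactivators YAP and TAZ in the nucleus, where they act with TEAD factors on genes such as CYR61, and it raises smooth muscle actin. Normal fibroblasts stop dividing or die when they lose anchorage, and lines that grow in suspension have lost that requirement.

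Values are normalized reads: read counts that the authors scaled by a factor per library. The SCF2 libraries held 14701827 to 21189892 reads and the CF2 libraries 26504120 to 28732348, and 1 read was worth 0.428 to 0.635 normalized reads in SCF2 and 0.316 to 0.346 in CF2. Differences are on the log2(normalized reads + 1) scale, SCF2 minus CF2, ± standard error, and a gene was called at a Benjamini-Hochberg adjusted p under 0.05 in limma. Replicates correlated at 0.997 in CF2 and 0.991 to 0.995 in SCF2, whereas DF1 replicate 3 stood apart within DF1, with correlations down to 0.954, so counts that rest on DF1 are given with and without it. Of 13123 genes tested, 3312 were higher in SCF2 (25.2%) and 2401 were lower (18.3%). The split depended on scaling: it was 2766 higher and 3007 lower with edgeR on the recovered reads, and 2718 higher and 2700 lower after quantile normalization. Fibroblast identity was visible in both groups, with COL1A1, the main chain of type I collagen, at 42310 ± 312 (SD, n = 3) in CF2 and 44660 ± 9012 in SCF2. Of 24 fibroblast markers 6 were higher (25%, near the 25.2% of all genes) and 6 lower (25%, against 18.3%).

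Several of the genes that differed most were nearly silent in 1 group. PAPPA2, a secreted protease that cuts IGF binding proteins, was at 8.22, 6.57 and 7.50 in the CF2 libraries and at 2009, 1659 and 1637 in the SCF2 libraries. The groups were far apart, and the difference was 7.71 ± 0.25 (adjusted p = 9.38e-14, limma). In line 4 PAPPA2 stayed below 2 in all 6 libraries, so that SCF2 alone was high among these 4 groups (line difference 8.33 ± 0.35, adjusted p = 8.4e-12, limma). DF1 replicate 3 held 1823 of it, against 12.5 and 16.4 in the other DF1 libraries and 164 to 186 in SDF1. MAP3K8, a kinase upstream of the ERK pathway, had 0 reads in all CF2 libraries and 78.8, 91.6 and 117 in SCF2, at least 287-fold higher against a floor of 3 reads over the CF2 group. It stayed below 4 in every CF4, SCF4, DF1 and SDF1 library. SLC6A17, an amino acid transporter known from synaptic vesicles, was at 1.58, 1.38 and 0 in CF2 and at 92.9, 123 and 78.1 in SCF2, and it was below 2 in all CF4, SCF4, DF1 and SDF1 libraries.

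Other large differences were in transcripts nearly absent or low in CF2 that the other lines carried. PLXNC1, a semaphorin receptor, was at 0.316, 1.04 and 2.39 in CF2 and at 117, 131 and 111 in SCF2, a difference of 5.85 ± 0.32 (adjusted p = 9.23e-11, limma). CF4 held 103 to 125 and SCF4 64.9 to 87.0 of it, so CF2 was the group that stood apart. CD82, a tetraspanin membrane protein, was at 34.5, 34.2 and 33.1 in CF2 and at 1427, 1521 and 1309 in SCF2, a difference of 5.34 ± 0.09 (adjusted p = 1.82e-17, limma). The lowest value of CD82 in CF4, SCF4, DF1 or SDF1 was 675. ACSF2, an acyl-CoA synthetase, was at 4.43, 4.15 and 4.43 in CF2 against 208, 201 and 218 in SCF2, and was between 85.6 and 250.4 in the libraries of those other 4 groups. The actin-binding LIM protein ABLIM1, the potassium channel KCNH6, the adhesion molecule SDK2, the metalloprotease ADAMTS7, the carboxypeptidase CPN1 and the vesicle protein SYTL1 completed the 12 largest increases, with differences of 5.44 to 6.54. Among genes with a called change of at least 1 on the log2 scale and at least 10 CPM (reads scaled to a library's total) in either group, CF2 was the group farther from the mean of the other 4 immortal groups in 379 of 570 that were higher in SCF2 and in 224 of 358 that were lower.

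The largest decreases fell into sets that differed in what the other lines did. PLXND1, the semaphorin 3E receptor, was at 250, 222 and 254 in CF2 and had 0 reads in every SCF2 library, at least 500-fold lower against the floor of 3 reads over the SCF2 group. FGD5, an exchange factor for the GTPase CDC42, was at 140, 120 and 138 in CF2 with 0 reads in SCF2, at least 274-fold lower. NR2C2, an orphan nuclear receptor, was at 109, 105 and 102 in CF2 with 0 reads in SCF2, at least 218-fold lower. All 3 genes were expressed in SCF4, with 79.0 normalized reads or more in each library, and all 3 were nearly absent in SDF1. SMOC2, a matrix protein of the SPARC family, was at 3564, 3362 and 3590 in CF2 and at 101, 102 and 128 in SCF2, and ITGA8, an integrin alpha chain, fell from 134, 140 and 157 to 8.99, 2.62 and 2.54. In line 4 SMOC2 differed by -0.21 and ITGA8 by -0.66, and neither was called.

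A further set was low in both SCF lines and high in the suspension form of DF1. TUBB3, the beta-tubulin best known from neurons, was at 459, 461 and 486 in CF2 and at 1.28, 0.436 and 2.54 in SCF2, and it fell by 8.07 on the log2 scale in line 4 while SDF1 exceeded DF1 by 6.01 (6.60 without DF1 replicate 3). S100A4, a calcium-binding protein of motile fibroblasts, was at 1044, 1154 and 1028 in CF2 and at 12.4, 5.23 and 15.9 in SCF2. GSTA3, a glutathione transferase, was at 170, 176 and 174 in CF2 and at 1.71, 1.74 and 0.635 in SCF2. CSNK2B, the regulatory subunit of casein kinase 2, was at 311, 338 and 319 in CF2 and at 8.13, 4.80 and 1.91 in SCF2. Over these 4 genes the DF1 libraries held 1.99 to 23.4, while CF2, CF4 and SDF1, of the same deposited set, were high. CKS1B, a partner of cyclin-dependent kinases, had the same split and was at 36.4, 31.5 and 22.2 in CF2 and at 1.28, 0 and 0 in SCF2. ATP8, a mitochondrial gene that overlaps its neighbour, was also among the largest decreases, at 4878 to 5778 in CF2 and 275 to 318 in SCF2, and its reads cannot be told apart from those of the overlapping gene.

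The primary culture CEF2, Broiler Ross 308 embryonic fibroblasts before immortalization, sat with SCF2 for some of these genes and with CF2 for others. CEF2 belongs to the first deposited set, as SCF2 does, so a likeness to SCF2 cannot be told apart from the deposited set. PAPPA2 was at 1129, 1218 and 1186 in CEF2, near SCF2 and far above CF2. SDK2 was at 416, 479 and 386, CD82 at 460, 383 and 480 and ACSF2 at 116, 99.3 and 99.9, each above every CF2 library. PLXND1 was at 473, 563 and 618, with CF2 and unlike SCF2, and S100A4 at 9.17, 8.39 and 8.09, with SCF2 and unlike CF2.

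**Figure D1:**
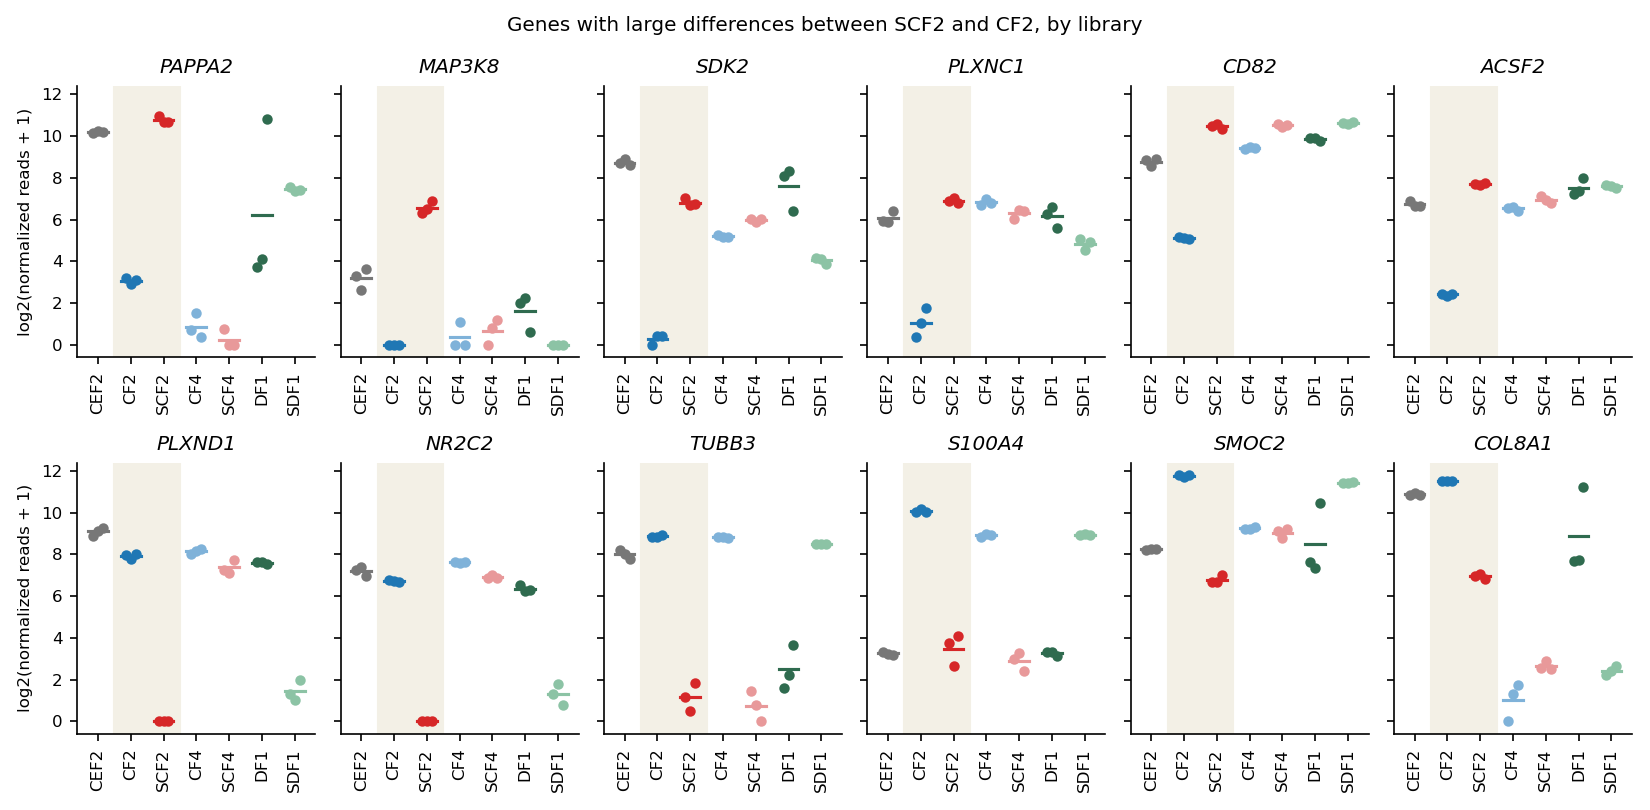
Level of 12 genes, as log2(normalized reads + 1), in each library of the primary culture CEF2 and of CF2, SCF2, CF4, SCF4, DF1 and SDF1; each point is 1 library, the bar is the group mean, and the tinted band marks CF2 and SCF2. PLXNC1, CD82 and ACSF2 are lowest in CF2, MAP3K8 is highest in SCF2, PLXND1 and NR2C2 are at 0 in SCF2 and near 0 in SDF1, and TUBB3 is high in CF2, CF4 and SDF1 (and in CEF2) with SCF2, SCF4 and DF1 low.

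Contractile genes were lower in SCF2. Of 31 tested genes of actin fibres and the smooth muscle programme 0 were higher and 14 (45.2%) were lower. The shares over all genes were 25.2% and 18.3%. The median difference was -0.31 against 0.03 over all genes tested. The counts were 0 and 17 with edgeR and 2 and 13 after quantile normalization. ACTA2, smooth muscle actin, was at 4313, 4131 and 4161 in the CF2 libraries and at 880, 918 and 719 in the SCF2 libraries, without overlap. It fell by 2.33 on the log2 scale (SE 0.1, adjusted p = 5.38e-12, limma), and the difference from line 4 was itself called (adjusted p = 4.67e-09). TPM1, an actin-stabilizing tropomyosin, fell from 3924 ± 92.0 (SD, n = 3) to 1895 ± 95.1, and PDLIM5, a scaffold of actin fibres, from 3926 ± 43.1 to 1971 ± 90. In line 4 the same 31 genes were 11 higher and 6 lower with a median of -0.03, where 45.7% of all genes were called, 27.3% higher and 18.4% lower. In SDF1 against DF1, 8 of 29 were higher and 0 lower, where 18.8% of all genes were higher and 12.8% lower; without DF1 replicate 3 the counts were 17 and 7, where 40.1% and 33.3% of all genes were called.

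Adhesion components went the same way with exceptions. Of 35 focal adhesion genes 4 were higher (11.4%, against 25.2% of all genes) and 16 lower (45.7%, against 18.3%). Line 4 had 9 higher and 13 lower. In SDF1 against DF1, 8 of 32 were higher and 1 lower, and 22 and 7 without DF1 replicate 3. SDC4, a heparan sulfate proteoglycan that works with integrins at adhesions, was at 5465 ± 98.1 (SD, n = 3) in CF2 and 901 ± 101 in SCF2. CAV1, the coat protein of caveolae, fell from 6132 ± 88.1 to 2511 ± 614, ZYX, a tension-dependent adhesion protein, from 2869 ± 44.2 to 1129 ± 83.7, and NEDD9, a docking protein, from 186 ± 11.4 to 49.8 ± 14.7. BCAR1, the related docking protein p130Cas, rose from 2970 ± 16.4 to 5728 ± 729. Of 18 integrin chains 3 were higher (16.7%, against 25.2% of all genes) and 7 lower (38.9%, against 18.3%). Line 4 had 6 higher and 5 lower, where 27.3% and 18.4% of all genes were called. In SDF1 against DF1, 7 of 18 were higher and 1 lower, where 18.8% and 12.8% of all genes were called. Without DF1 replicate 3 the counts were 13 and 3, where 40.1% and 33.3% of all genes were called. ITGAV, the alpha chain of the vitronectin and fibronectin receptors, fell from 14500 ± 928 to 8538 ± 575, and ITGB1, the shared beta chain, had 11860 ± 140 and 10180 ± 469, a fall by 0.22 on the log2 scale. ITGB3, the beta chain that pairs with ITGAV, rose from 10.9 ± 1.62 to 73.5 ± 10.8, and ITGA7, a laminin receptor chain, from 5.70 ± 2.76 to 131 ± 41.8.

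Genes of the YAP pathway were mostly lower. Of 22 tested pathway members 1 was higher (4.55%, against 25.2% of all genes) and 12 lower (54.5%, against 18.3%), with a median of -0.30. The count pools the members whatever their role in the pathway, and YAP activity was not measured. In line 4 2 were higher and 10 lower, where 27.3% and 18.4% of all genes were called. SDF1 against DF1 went the other way, with 6 of 22 higher and 0 lower and a median of 0.23. All genes there were 18.8% higher and 12.8% lower. Without DF1 replicate 3 those counts were 13 and 4, where 40.1% and 33.3% of all genes were called. PTPN14, a phosphatase that binds YAP, fell from 583 ± 79.0 (SD, n = 3) to 159 ± 16.2, and TEAD1, its DNA-binding partner, from 415 ± 30.6 to 242 ± 35.0. YAP1 itself was at 803 ± 53.8 and 672 ± 118, which did not pass the test (adjusted p = 0.0705, limma). Of 22 target genes 6 were higher (27.3%, near the 25.2% of all genes) and 9 lower (40.9%, against 18.3%). Line 4 had 8 higher and 9 lower. For these targets SDF1 against DF1 had 6 of 21 higher and 0 lower, and 10 and 6 without DF1 replicate 3. CYR61, a matricellular protein and standard YAP target, was at 7991 ± 116 in CF2 and 2077 ± 447 in SCF2 and fell by 1.97, whereas in line 4 it was higher in suspension by 0.52 (line difference adjusted p = 1.31e-08, limma). AXL, a receptor tyrosine kinase, rose from 250 ± 5.83 to 780 ± 95.2.

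**Figure D2:**
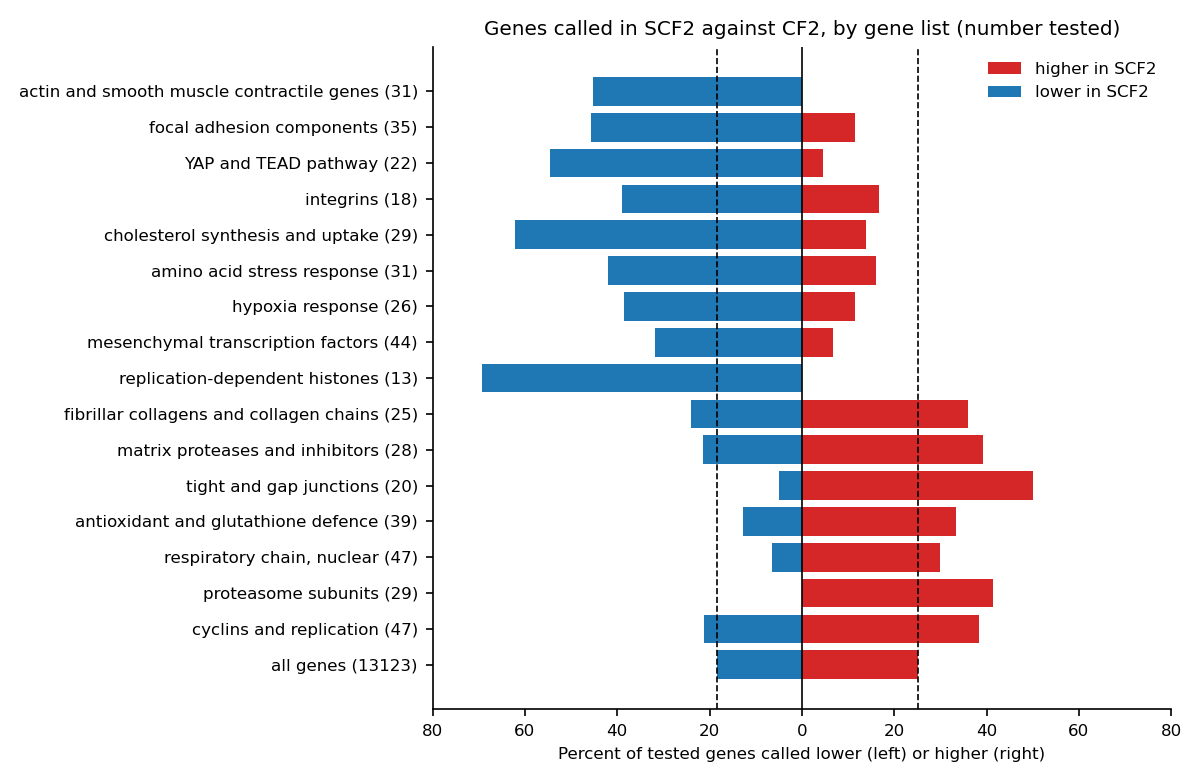
Percent of tested genes called higher (right) and lower (left) in SCF2 than in CF2, for gene lists and for all genes, with the number tested beside each name. The contractile list has 0 genes higher and 14 of 31 lower, and the proteasome list 12 of 29 higher and 0 lower.

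Matrix genes moved in both directions in line 2. Of 25 collagen chains 9 were higher (36%, against 25.2% of all genes) and 6 lower (24%, against 18.3%). Line 4 had 12 higher and 1 lower, where 27.3% and 18.4% of all genes were called. SDF1 against DF1 had 11 of 18 higher and 1 lower, where 18.8% and 12.8% of all genes were called. Without DF1 replicate 3 the counts were 14 and 2 of 17, where 40.1% and 33.3% of all genes were called. COL8A1, a short-chain collagen, was at 2939, 2957 and 2936 in CF2 and at 124, 133 and 112 in SCF2, and COL12A1, a fibril-associated collagen, fell from 167 ± 10.6 (SD, n = 3) to 23.3 ± 2.14. COL6A1 and COL6A2, chains of microfibrillar collagen VI, rose by 0.88 and 0.79, and COL6A3, the remaining main chain, fell by 0.70. FN1, fibronectin, fell from 22590 ± 660 to 11210 ± 1995, and NOV, a matricellular relative of CYR61, from 6848 ± 143 to 1226 ± 160; both were higher in suspension in line 4, by 0.81 and 1.43. Of 28 matrix proteases and inhibitors 11 were higher (39.3%) and 6 lower (21.4%), with a median of 0.55. Line 4 had 13 higher and 4 lower. SDF1 against DF1 had 7 of 24 higher and 0 lower, and 12 and 5 without DF1 replicate 3. SERPINE2, a protease inhibitor, rose from 71.0 ± 4.14 to 521 ± 33.5, and the metalloprotease ADAM12 from 808 ± 21.6 to 2113 ± 46.6.

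Tight and gap junction genes were more often higher in SCF2, and lists of other junction and signalling genes moved in both directions. Of 20 tight and gap junction genes 10 were higher (50%, against 25.2% of all genes) and 1 lower (5%, against 18.3%). The median was 0.56, and the counts were 6 and 1 after quantile normalization. Line 4 had 3 higher and 1 lower, with a median of 0. Many of these genes were low: of 24 measured, 15 were under 10 normalized reads in CF2 and 13 in SCF2. The summed level of the list was alike, 4530 to 4690 in CF2 and 4500 to 5180 in SCF2. TJP1, a scaffold of tight junctions, rose from 304 ± 29.8 (SD, n = 3) to 765 ± 68.5. GJA1, the main gap junction channel of fibroblasts, was the one that fell, from 3247 ± 116 to 2080 ± 100. Of 32 cadherins and catenins 4 were higher (12.5%, against 25.2% of all genes) and 8 lower (25%, against 18.3%), with a median of -0.18. Of 47 Wnt pathway genes 14 were higher (29.8%, against 25.2% of all genes) and 5 lower (10.6%, against 18.3%), with a median of 0. FZD6, a Wnt receptor, was at 36.2 ± 4.52 in CF2 and 438 ± 14.2 in SCF2, and WNT6, a ligand, at 14.3 ± 1.71 and 122 ± 6.46. MST1R, a receptor kinase for macrophage stimulating protein, rose from 59.4 ± 1.47 to 376 ± 59.1, and IGF1R, the receptor for insulin-like growth factor, fell from 992 ± 62.1 to 261 ± 60.1. In the TGF-beta list, 11 of 43 were higher and 8 lower, 25.6% and 18.6%, which is near the shares over all genes. There LTBP2, a latency-binding family member, rose from 41.9 ± 2.27 to 436 ± 68.4 and ID4, an inhibitor of bHLH factors, fell from 1403 ± 33.8 to 170 ± 27.9.

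Transcription factors of mesenchyme were more often lower, 14 of 44 (31.8%, against 18.3% of all genes) and 3 higher (6.82%, against 25.2%). Line 4 had 9 higher and 14 lower. In SDF1 against DF1, 10 of 35 were higher and 4 lower, and 19 and 10 of 34 without DF1 replicate 3. EN1, a homeobox factor of dermal fibroblast lineages, fell from 3841 ± 126 (SD, n = 3) to 885 ± 233 and FOXC2, a forkhead factor, from 386 ± 4.41 to 134 ± 20.4. KLF2, a factor known for its response to fluid flow in endothelium, rose from 122 ± 5.91 to 622 ± 70.4 and also rose in line 4 by 1.47; the shaken culture and the deposited set are both unlike between these groups, and their part in the result was not tested.

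The cell cycle lists had no stable direction. Of 47 cyclin and replication genes 18 were higher (38.3%, against 25.2% of all genes) and 10 lower (21.3%, against 18.3%) in limma. Of 48 mitosis genes 14 were higher (29.2%) and 9 lower (18.8%), near the shares over all genes. With edgeR the counts were 11 and 13 for cyclins and replication, and 8 and 11 for mitosis. Over all 13123 genes edgeR called 2766 higher and 3007 lower, so its balance was also shifted. In line 4 the cyclin list had 21 higher and 11 lower and the mitosis list 16 and 16, where 27.3% and 18.4% of all genes were called. In SDF1 against DF1 these were 3 and 18, and 11 and 5, where 18.8% and 12.8% were called. Without DF1 replicate 3 they were 8 and 28, and 36 and 6, where 40.1% and 33.3% were called. Single inhibitors differed strongly. CDKN2B, the inhibitor p15, fell from 234 ± 9.73 (SD, n = 3) to 33.2 ± 4.81, CDKN1A, the inhibitor p21, rose from 3.34 ± 0.679 to 28.8 ± 7.62, and CDKN2A was at 3233 ± 92.5 and 3265 ± 506. Both changes had the same direction in line 4, and in SDF1 against DF1 both had the opposite one, with CDKN2B at 3.68 and CDKN1A at -1.75 (3.31 and -1.90 without DF1 replicate 3). MYC fell from 1446 ± 21.8 to 850 ± 32.7. Of 13 replication-dependent histone genes 0 were higher and 9 lower, with a median of -1.96, and 10 of 13 were lower in line 4. SDF1 against DF1, within 1 deposited set, had 4 of 13 higher and 0 lower, with a median of 0.34. Without DF1 replicate 3 those counts were 8 and 1. Near-identical copies share reads, so the values of single histone genes are uncertain. HIST1H2BO was at 537 ± 16.8 and 81.2 ± 40.8.

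Lipid and stress genes showed a metabolic side of the comparison. Of 29 genes of cholesterol synthesis and uptake 4 were higher (13.8%, against 25.2% of all genes) and 18 lower (62.1%, against 18.3%). The median was -0.42, and in line 4 8 were higher and 7 lower. The line difference was called in 1 upward and 15 downward. DHCR7 and MSMO1, enzymes of the late pathway, fell from 6501 ± 83.1 (SD, n = 3) to 3597 ± 314 and from 10200 ± 114 to 6050 ± 528. INSIG1, a sterol-regulated brake on the pathway, fell from 3577 ± 7.35 to 2104 ± 50.7. ACLY, which makes cytosolic acetyl-CoA, fell from 21280 ± 450 to 6824 ± 336, and LIPE, hormone-sensitive lipase, from 342 ± 22.9 to 61.1 ± 6.80. Of 26 hypoxia genes 3 were higher (11.5%, against 25.2% of all genes) and 10 lower (38.5%, against 18.3%). Line 4 had 9 higher and 7 lower. In SDF1 against DF1, 4 of 24 were higher and 3 lower, and 13 and 8 without DF1 replicate 3. NDRG1 fell from 1720 ± 35.5 to 312 ± 23.0 and PFKFB3, a glycolytic regulator, from 347 ± 21.7 to 62.0 ± 19.2. Of 31 genes of the amino acid stress response 5 were higher (16.1%) and 13 lower (41.9%). Line 4 had 13 higher and 10 lower, and SDF1 against DF1 had 16 higher and 1 lower (26 and 3 without DF1 replicate 3). STC2, a secreted stress-induced glycoprotein, fell from 631 ± 8.13 to 165 ± 22.3.

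Protein turnover and antioxidant genes leaned upward. Of 29 proteasome subunits 12 were higher (41.4%, against 25.2% of all genes) and 0 lower (against 18.3%), with a median of 0.23. With edgeR the counts were 9 and 2. Line 4 had 24 higher and 1 lower, while SDF1 had 0 higher and 15 lower (1 and 23 without DF1 replicate 3). PSMA4, a core subunit, rose from 1522 ± 47.7 (SD, n = 3) to 3868 ± 558. Of 39 antioxidant genes 13 were higher (33.3%, against 25.2% of all genes) and 5 lower (12.8%, against 18.3%), and 11 and 7 with edgeR. Line 4 had 23 higher and 1 lower. In SDF1 against DF1, 9 of 36 were higher and 5 lower, and 17 and 12 without DF1 replicate 3. GPX3, a secreted glutathione peroxidase, rose from 84.9 ± 10.1 to 511 ± 29.9 and NQO1, a quinone reductase, from 505 ± 13.1 to 1269 ± 141.

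Markers of skeletal muscle and of macrophages and blood were low or moved without their defining genes. Among the 22 tested genes of skeletal muscle, the myosins MYH15 and MYH1B fell and 0 rose; that list summed to 839 to 861 normalized reads in CF2 and 144 to 161 in SCF2, with 8 of the listed genes at 0 in each group. Of 15 macrophage and blood markers 5 were higher (33.3%, against 25.2% of all genes) and 0 lower (against 18.3%), and 1 and 0 after quantile normalization. Their summed levels were 211 to 222 in CF2 and 246 to 324 in SCF2, with 0 reads of SPI1, the defining myeloid factor, in SCF2. Of 16 endothelial markers 6 were higher (37.5%, against 25.2% of all genes) and 3 lower (18.8%, against 18.3%). That list summed to 3300 to 3360 in CF2 and 3590 to 3670 in SCF2. Of 19 measured, 13 were under 10 normalized reads in CF2 and 12 in SCF2. The junction cadherin CDH5 was among the low ones, at 2.67 ± 0.556 (SD, n = 3) in CF2 and 0.857 ± 0.421 in SCF2. The W-linked genes HINTW and ATP5A1W were present in both groups and fell by 0.88 and 0.72.

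Neighbouring genes differed together along the genome. Genes were put in RefSeq GRCg7b order, in windows of 15 genes, and runs of at least 2 windows whose median departed by at least 0.5 from that of all genes were called blocks; this was added after the data were seen. Of 8895 ordered genes 918 (10.3%) lay in 11 such blocks, 8 higher and 3 lower in SCF2, and 87.3% of block genes were called against 49.2% of the other ordered genes. The rule reads the same contrast, so these shares describe the blocks and do not test them. The same rule found 1 block of 30 genes in SCF4 against CF4 and 3 blocks of 175 genes in SDF1 against DF1, or 6 of 282 genes without DF1 replicate 3. The line 4 block, GREB1L to MCM4, overlapped the line 2 block of 45 genes from SS18 to VCPIP1. That line 2 block had a median difference of -0.69 in line 2 and -0.50 in line 4. The block from VPS53 to PIGW had 0.74 and 0.50. In the other line 2 blocks the line 4 median was between -0.01 and 0.34. DNA was not measured.

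**Figure D3:**
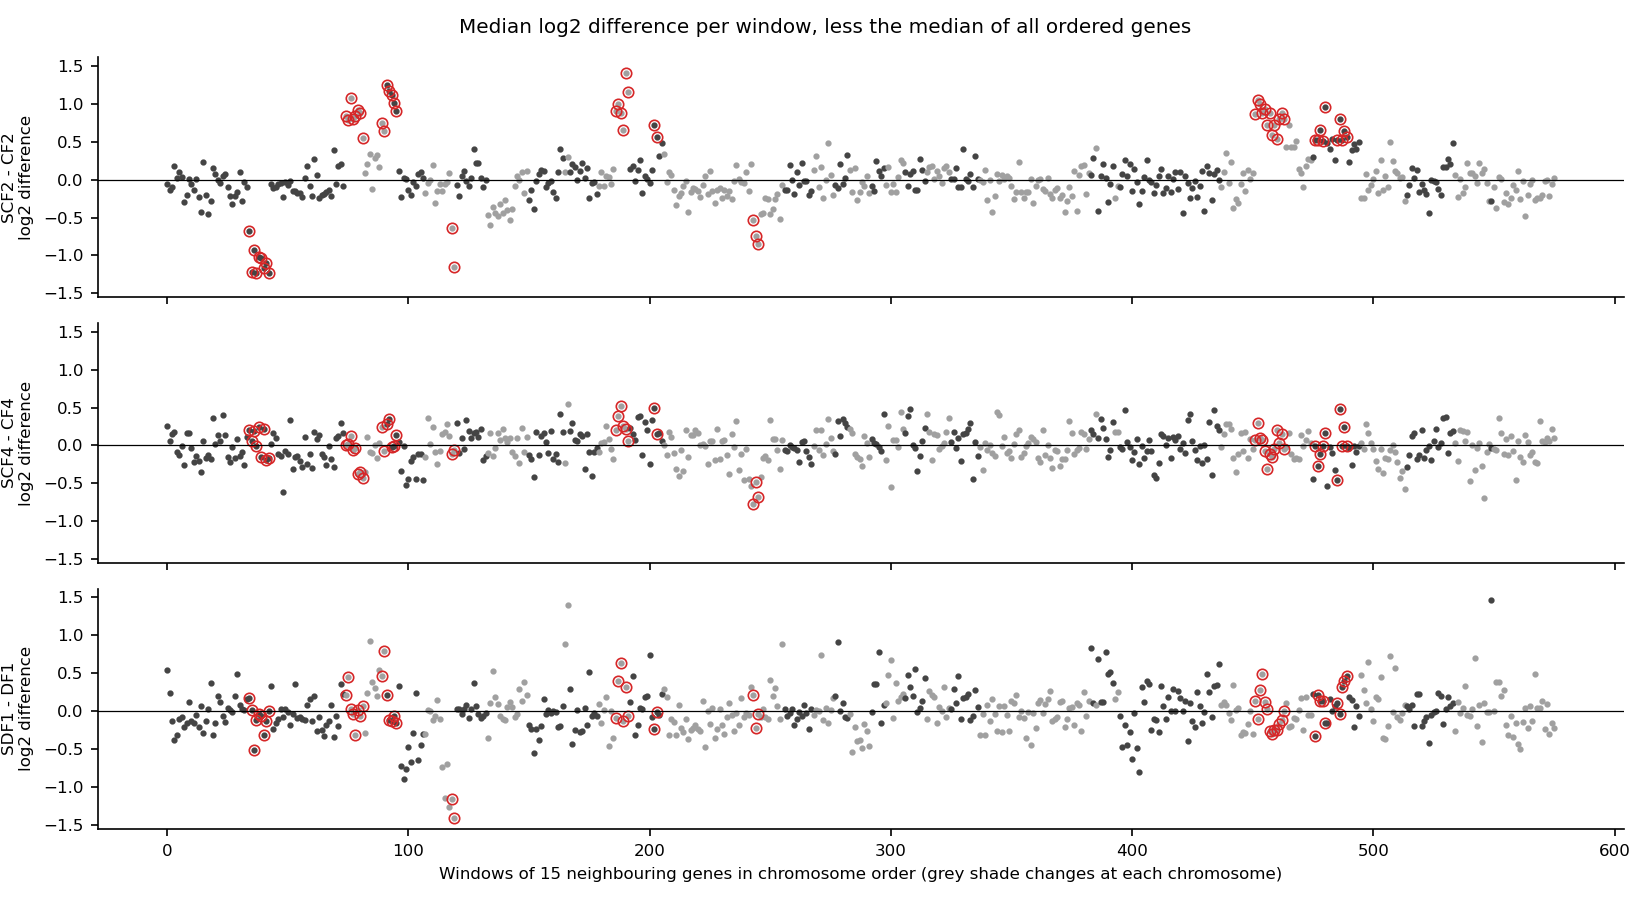
Median log2 difference of windows of 15 genes in genome order, less the median of all ordered genes, for SCF2 minus CF2, SCF4 minus CF4 and SDF1 minus DF1; each dot is 1 window, the grey shade changes at each chromosome, and red rings mark the windows of the 11 blocks of the line 2 comparison in all 3 panels. The ringed windows leave 0 in runs in the upper panel, and few of them do so in the panel of line 4.

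Blocks differed in which group stood apart. In the block of 96 genes from WIPI1 to LLGL2, 84 were higher and 4 lower in SCF2. Against the mean of CF4, SCF4, DF1 and SDF1, the median level of its genes was -0.97 to -0.98 in the CF2 libraries and 0.01 to 0.12 in the SCF2 libraries, so CF2 was the low group. The block of 120 genes from LOC101747373 to MAPK4 had the same form, with -0.82 to -0.84 in CF2 and -0.01 to 0 in SCF2. In the block of 75 genes from PLA2G15 to C11H16orf70, 74 were higher and 0 lower, with CF2 at -0.57 to -0.58 and SCF2 at 0.37 to 0.60, and the primary culture CEF2 was as low as CF2, at -0.52 to -0.63. In the block of 135 genes from CCDC91 to MINA, which includes COL8A1, ZYX, MFAP5 and MYH15, 117 were lower: CF2 stood at 0.46 to 0.49, as did DF1 at 0.46 to 0.49, and SCF2 stood at -0.47 to -0.51, near CF4 at -0.51 to -0.54. SDK2 and ACSF2 lay in the WIPI1 block, and CD82, LTBP2 and AXL in a block of 195 genes from APIP to ALKBH1, of which 165 were higher. Without block genes in the table, 2664 genes were higher and 2149 lower.

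**Figure D4:**
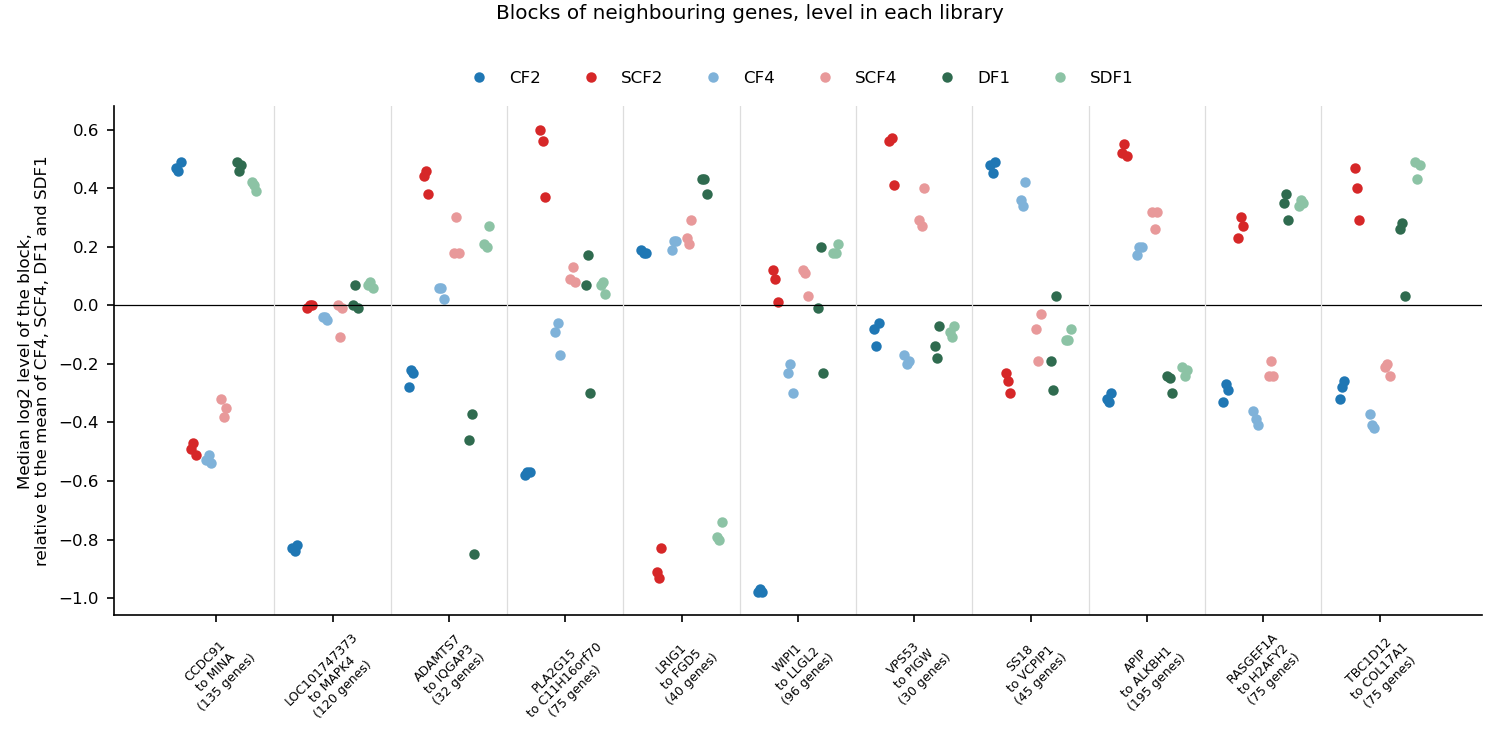
Median level of each block's genes in each library, log2 relative to the mean of CF4, SCF4, DF1 and SDF1; each point is 1 library and colours mark the groups. The WIPI1 and MAPK4 blocks are low in the CF2 libraries, and the LRIG1 to FGD5 block is low in the SCF2 and SDF1 libraries.

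The block from LRIG1 to FGD5 held the 3 genes without reads in SCF2. Of its 40 genes 32 were lower in SCF2, with library levels of -0.83 to -0.93 against 0.18 to 0.19 in CF2, and SDF1 stood at -0.74 to -0.80. The extent was not the same in SDF1 against DF1, where the block held 100 genes from COPG1 to FGD5. Over those 100 genes the median difference was -1.08 in SDF1 against DF1 and -0.16 in line 2. Of the 20 genes that end at FGD5, all but CAND2 were called lower in SCF2, and all but BHLHE40 and SRGAP3 were called lower in SDF1. Over all genes 18.3% were called lower in SCF2 and 12.8% in SDF1. These genes lie in blocks that were found from the same differences, so the calls describe the run and do not test it. The endosomal protein gene RBSN fell by 1.16 in SCF2 and 1.08 in SDF1, the mitochondrial ribosome gene MRPS25 by 1.39 and 1.35, and the ribosomal protein gene RPL32 by 1.17 and 1.45. Without DF1 replicate 3 the SDF1 differences of these 3 were -0.86, -1.40 and -1.70. PLXND1, NR2C2 and FGD5 had 0 reads in SCF2 and means of 1.83, 1.56 and 0.488 in SDF1. In SCF4 against CF4, RBSN, MRPS25 and RPL32 differed by 0.06, 0.25 and -0.13 and were not called, and PLXND1 and NR2C2 fell by 0.78 and 0.72. NR2C2 and FGD5 were the 2 genes below 0.2 CPM in SCF2 and SDF1 while at 3 or more in every other immortal group.

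**Figure D5:**
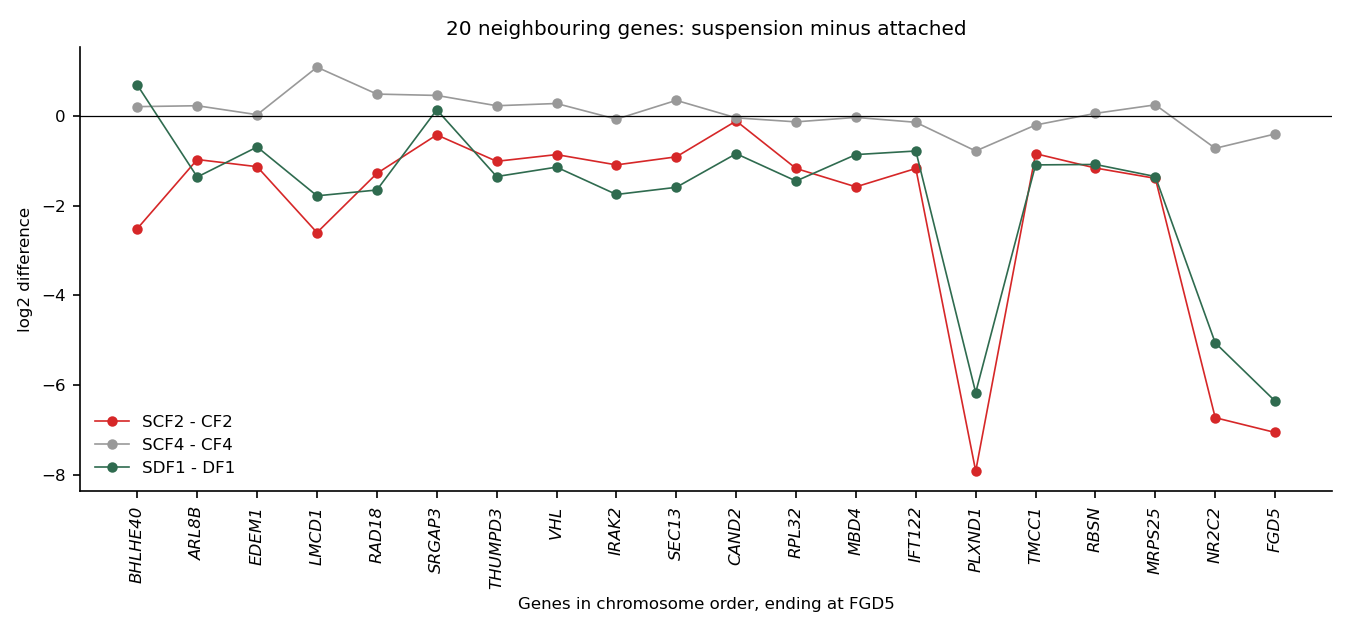
Log2 differences of the 20 neighbouring genes that end at FGD5, in gene order, for SCF2 minus CF2, SCF4 minus CF4 and SDF1 minus DF1; each point is 1 gene, joined by lines for reading only. PLXND1, NR2C2 and FGD5 lie at -6.73 to -7.92 in line 2 and at -5.06 to -6.36 in DF1.

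A few genes were present or absent by group. As a description across genes, which are not independent replicates, the mean of SCF2 correlated at 0.983 with that of SCF4 and at 0.977 with that of CF2, and CF2 at 0.978 with CF4. C18H17orf62, PTER and PCBP4 were below 0.2 CPM in CF2 and SCF2 and at 3 or more in CF4, SCF4, DF1 and SDF1. PLXNC1, AGPAT4 and EMID1 were absent by that rule in CF2 alone, and SLC6A17 and IGFBP7 were present in SCF2 alone.

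The line 2 difference was only partly that of the other lines. The line difference, the test of whether SCF2 minus CF2 departs from SCF4 minus CF4, called 2435 genes higher (18.6%) and 2316 lower (17.6%) of 13123. Of the line 2 calls 2465 (43.1%) were also called in the same direction in line 4, where they made 41.1% of the calls, and 846 (14.8%) in the opposite direction. Against SDF1 minus DF1, which lies within 1 deposited set and shares no library with line 2, 1058 (18.9%) were called in the same direction and 835 in the opposite direction (15%), which made 29.4% and 23.2% of the calls there; 31.6% of 11459 genes were called in that comparison. Without DF1 replicate 3, 73.4% of the genes tested were called in that comparison, and the counts were 2123 and 2124. The line 2 difference departed from that of DF1 in 2318 genes upward (19.6%) and 2239 downward (18.9%) of 11818, and in 3850 and 3466 without DF1 replicate 3.

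A smaller set of genes went the same way in all 3 comparisons, 327 higher and 136 lower of 11425 tested in all 3. Without DF1 replicate 3 these were 637 and 266 of 11293. A further 224 were lower in both lines and higher in SDF1 (490 without DF1 replicate 3). Another 154 were higher in both lines and lower in SDF1 (499 without DF1 replicate 3). Of genes higher in line 2 and lower in line 4, 99 were higher and 52 lower in SDF1. Of genes lower in line 2 and higher in line 4, 90 were higher and 60 lower in SDF1. The share of tested genes called was 43.5% in line 2, 45.7% in line 4 and 31.6% in DF1 (73.4% without DF1 replicate 3). The overlap that these shares alone would give was not computed. HSPB9, a small heat shock protein, was at 55.3 ± 4.52 (SD, n = 3) in CF2 and 340 ± 37.8 in SCF2, and it was higher by 2.60, 3.85 and 1.39 in line 2, line 4 and DF1. The transcription factor FLI1 was higher by 2.45, 1.68 and 1.31, and the microtubule-associated protein MAP7 by 3.01, 1.83 and 3.10. ADH1C, an alcohol dehydrogenase, GMPR2, a purine salvage enzyme, OAF and AP3S2 were also among the 8 largest of that kind. ATRX, a chromatin remodeller, fell by 1.22, 1.42 and 1.60, NUCKS1, a nuclear phosphoprotein, by 1.39, 0.82 and 0.89, and ITPR1, a calcium release channel, by 1.06, 0.88 and 1.51. Without DF1 replicate 3 the DF1 differences were 1.28 for HSPB9, 0.88 for FLI1, 2.26 for MAP7, -1.04 for ATRX, -0.75 for NUCKS1 and -1.64 for ITPR1.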

How the data were processed

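RNA was sequenced in 27 libraries of 9 groups of 3, prepared with NuGEN Trio kits as paired-end reads per the labels' protocols. Values are a deposited signal: read counts per gene symbol that the authors divided by a factor per library, with Bowtie2, RSEM, DESeq2 and the build galGal6 named in the submitters' processing notes, without their roles. Dividing by the value of 1 read gave whole reads for 100% of values in every library (tolerance 0.01). Tests used limma 3.58.1 in R 4.3.3 (empirical Bayes, trend and robust) on log2(value + 1), for genes at 1 or more in at least 3 fitted libraries, with Benjamini-Hochberg adjustment over all genes. SCF2 against CF2, SCF4 against CF4 and the line difference came from 1 fit of 18 libraries of 6 groups, SDF1 against DF1 from its own 6, and the difference from DF1 from 12. The 6 groups were CF2, CF4, SCF2, SCF4 and the primary cultures CEF2 and CEF4, which shared 1 estimate of spread per gene. A fit of SCF2 and CF2 alone called 6001 genes, 3503 higher and 2498 lower. The fits were tested on simulated data. edgeR 4.0.16 on recovered reads (quasi-likelihood test, TMM) was an alternative; the blocks of neighbouring genes, the counts without their genes and the values per gene, list and block without DF1 replicate 3 were chosen after seeing the data.

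Genes were named by rules: the 12 largest called changes each way without overlap and at 10 or more CPM, up to 3 each way per list, a list of genes of interest, and the 8 and 5 largest for shared and for unlike changes; a few genes that the rules name are not reported here. The members and the 52 lists were chosen with earlier results of these data known. The replicate numbers did not pair the libraries. Of the tested genes 12512 matched RefSeq symbols.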

Additional observations from a re-analysis of the deposited data

Results flagged for a closer look

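The line 2 difference departed from that of line 4 in 4751 genes (limma, adjusted over all genes). Among the genes named for it, the line difference on the log2 scale, SCF2 minus CF2 less SCF4 minus CF4, was 8.33 for PAPPA2, 6.38 for PLXNC1, 6.28 for MAP3K8, 6.10 for ABLIM1 and 5.83 for CPN1. It was -7.14 for PLXND1, -6.66 for FGD5, -6.21 for COL8A1, -6.01 for NR2C2 and -5.00 for FAM180A. FAM180A fell by 0.76 in line 2 and rose by 4.24 in line 4.

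The line 2 difference departed from that of DF1 in 4557 genes, and in 7316 without DF1 replicate 3. The difference from DF1 was 10.09 for SDK2, 8.54 for PSD, 8.20 for MAP3K8, 7.90 for WISP1 and 7.69 for PDLIM4. It was -13.71 for TUBB3, -12.28 for S100A4, -11.34 for GSTA3, -11.17 for CKS1B and -8.81 for CSNK2B. Without DF1 replicate 3 these were, in the same order, 10.68, 8.83, 8.69, 7.72 and 7.96, and -14.29, -12.21, -10.96, -11.91 and -8.67. WISP1, a matricellular Wnt target, was at 580 to 652 normalized reads in SCF2 and 44.6 to 52.6 in CF2, and it was at 0 in SDF1 and 13.2 to 23.2 in DF1.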

How the results depend on the processing

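Of 279 called named genes, 89 passed a test against a minimum change of 1 on the log2 scale. Under the other alternatives run gene by gene, 251 kept direction and call throughout, 28 lost the call in at least 1, and TGFBI turned, to -0.02 after quantile normalization (adjusted p 0.903). edgeR ended the call of 11 and quantile normalization of 12. With that minimum change, 709 genes passed in SCF2 against CF2 (465 higher, 244 lower), 541 in the line difference (337 higher, 204 lower), 175 in SDF1 against DF1 (129 higher, 46 lower) and 761 in the difference from DF1 (311 higher, 450 lower). Windows of 20 genes gave 7 blocks.

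Leaving out 1 library gave 4943 to 5711 calls in SCF2 against CF2 and 4155 to 4980 in the line difference. SDF1 against DF1 ranged from 1336 to 8313 (847 to 4539 higher, 489 to 3774 lower); the highest count was without DF1 replicate 3, and those without SDF1 replicate 1, 2 or 3 were 1336, 1359 and 1345. The difference from DF1 ranged from 3676 to 7316, the highest (3850 higher, 3466 lower) without DF1 replicate 3 and the fewest in each direction 1838 higher and 1832 lower. The cause was not tested.

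With the replicate number as a block, SCF2 against CF2 had 3265 higher and 2349 lower genes, and SDF1 against DF1 1724 (1147 higher, 577 lower). Deviations of same-numbered SCF2 and CF2 libraries correlated at 0.005, 0.012 and -0.126, so the numbers do not pair them. The scale is relative: no change in total RNA per cell can be seen. A group at 0 reads allows up to 3 reads.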
